A study of Mus musculus with 12 samples.

Results

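The 7 genes described here are the corticosteroid receptors *Nr3c1* and *Nr3c2*, the response genes *Sgk1*, *Tsc22d3*, *Fkbp5* and *Zbtb16*, and *Hsd11b1*, which regenerates the hormone inside the cell. They were taken by symbol from a table of 38283 mouse genes, and each symbol matched 1 row. RNA came from the hypothalamic arcuate nucleus (ARC), cut from brain sections by laser-capture microdissection, of 5 wild-type (WT) mice and 7 mice homozygous (Homo) for a knockin R299Q mutation in *Prkag2*, the gene of the AMPK γ2 subunit. All mice were freely fed C57BL/6 males aged 8 weeks, none was treated, and the mutation is in the germline, so every tissue carries it. Each mouse gave 1 library, amplified across the whole transcriptome before sequencing, and expression is given in FPKM (fragments scaled to transcript length and to the mapped fragments of the library).

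Corticosterone, the main glucocorticoid of the mouse, enters cells and binds 2 nuclear receptors. The mineralocorticoid receptor (*Nr3c2*) has the higher affinity and is largely occupied at rest, while the glucocorticoid receptor (*Nr3c1*) fills at the daily peak and under stress. Bound receptors move to the nucleus, where they act on glucocorticoid response elements, imperfect palindromes built from the arm AGAACA. In the ARC, glucocorticoids are known to promote expression of the orexigenic peptides of AGRP neurons, and the receptor is found in these neurons as well as in glia.

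The response element itself was looked up in promoter sequences from RefSeq (GRCm38.p6, 250 bases before to 50 bases after a start site), which held 12 promoters for 5 of the 7 genes. *Nr3c1* and *Zbtb16* had no entry. The perfect palindrome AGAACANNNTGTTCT, which reads the same on either strand, was found in 1 of the 12, a promoter of *Sgk1*, and in 3 of all 32851 promoters (0.00913%). The single arm AGAACA, searched on both strands and also counted where it forms part of the palindrome, was found in 4 of the 12, belonging to *Sgk1* and *Tsc22d3*, and in 19.0% of all promoters. The stretch of the *Sgk1* promoter is shown because it holds the whole element, and that of *Tsc22d3* because it holds an arm alone. Capitals mark the element, and both are written 5′ to 3′ on the strand of the gene.
Sgk1, chr10:21993656-21993760, plus strand: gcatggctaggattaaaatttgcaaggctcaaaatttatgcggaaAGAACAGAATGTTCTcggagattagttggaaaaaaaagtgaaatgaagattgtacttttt
Tsc22d3, chrX:140600675-140600734, minus strand: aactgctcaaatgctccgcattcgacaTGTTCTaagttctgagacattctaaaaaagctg
The *Sgk1* element begins at position -189 relative to its start site and the *Tsc22d3* arm at position -185. These matches describe letters only, and binding was not measured.

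Libraries listed between 15742 and 18635 genes above 0 and fell into 2 sets, 7 libraries with 15742 to 16467 genes (WT 1, WT 2 and Homo 1 to 5) and 5 with 18141 to 18635 (WT 3 to 5, Homo 6 and Homo 7). Neither the labels nor the paper names this split. The titles of Homo 6 and Homo 7 are worded differently from those of Homo 1 to 5, and the WT titles are all worded alike. Because of the split, genotype differences are also given within each set. The means of the sets also differed for some tissue markers. In the 5 libraries the mean log2 level was higher by 1.72 for blood markers and by 0.83 for pituitary and pars tuberalis markers. It was higher by 0.49 for oligodendrocyte markers and differed by -0.60 for ARC neuron markers. The other marker lists differed by -0.011 to 0.20, and none of these differences was tested. They did not hold for each of the 5 libraries. WT 4 had the lowest summed pituitary and pars tuberalis (38.9 FPKM) and oligodendrocyte markers (88.8 FPKM) of all libraries. Its blood markers summed to 23.6 FPKM, against 5.03 to 29.5 FPKM in the 7 libraries. Depth was estimated from genes with 1 annotated transcript, where the most frequent value of FPKM times transcript length was taken as 1 fragment. On 1 kb of transcript, 1 fragment was then worth about 0.159 to 0.342 FPKM in the 7 libraries and 0.0854 to 0.121 FPKM in the 5. That estimate is rough: the most frequent value need not be 1 fragment, and each gene was given the length of its longest coding transcript. On it, *Nr3c1* rested on about 291 to 1394 fragments per library, *Hsd11b1* on about 5 to 56 and *Zbtb16* on about 6 to 68. *Agrp*, *Npy*, *Pomc* and 5 further markers of ARC neurons summed to 1284 to 4513 FPKM in WT and 3405 to 5158 FPKM in Homo. *Prkag2* was measured at 7.73 to 22.5 FPKM in WT and 8.61 to 24.0 FPKM in Homo. A point mutation need not alter its level, so this does not check the labels. Genotypes were compared with limma on log2(FPKM + 1) over the 14017 genes with a mean of at least 1 FPKM, with Benjamini-Hochberg adjustment over all of them; 6 of the 7 genes passed this filter and *Zbtb16* did not. For each gene a two-sided exact permutation test, enumerating all 792 ways of assigning 5 and 7 libraries to the genotypes, was added, whose smallest possible p is 0.00126.

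Ranked by mean FPKM over the 12 libraries, *Sgk1* came first at 28.8, followed by *Nr3c1* at 17.3, *Tsc22d3* at 7.50, *Nr3c2* at 7.50, *Hsd11b1* at 2.63, *Fkbp5* at 2.49 and *Zbtb16* at 0.917. Neighbours in this order were compared within libraries by an exact paired permutation test of their log2 ratio, with adjustment over the 6 pairs. *Nr3c1* exceeded *Tsc22d3* in 12 of 12 libraries (2.39-fold, adjusted p = 0.00146, exact paired permutation test), and *Nr3c2* exceeded *Hsd11b1* in 11 of 12 (2.43-fold, adjusted p = 0.0186, exact paired permutation test). *Fkbp5* exceeded *Zbtb16* in 12 of 12 (2.69-fold, adjusted p = 0.00146, exact paired permutation test). *Sgk1* and *Nr3c1* were not separated after adjustment (1.5-fold, higher in 10 of 12, adjusted p = 0.0681, exact paired permutation test), nor were *Tsc22d3* and *Nr3c2* (adjusted p = 0.363, same test) or *Hsd11b1* and *Fkbp5* (adjusted p = 0.988, same test).

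**Figure D1:**
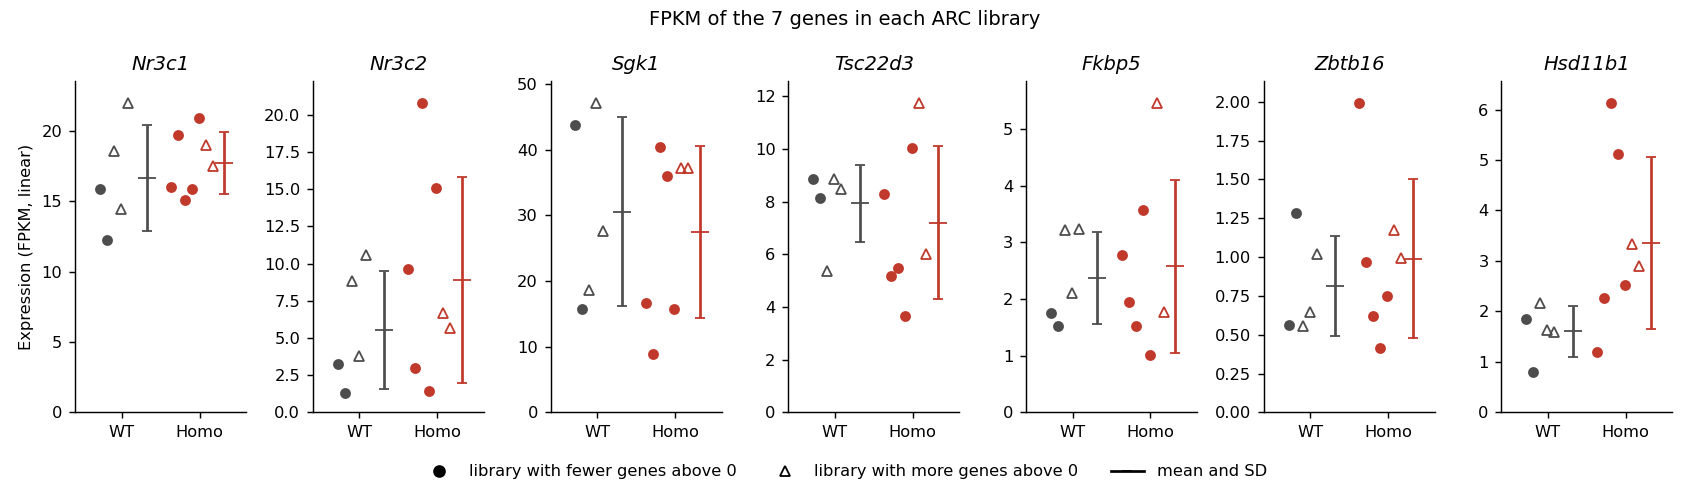
FPKM of each gene (linear axis from 0, a separate scale for each gene) in the 5 WT and 7 Homo libraries, 1 point per mouse, with the mean and SD of each genotype beside the points. Filled circles are libraries with fewer genes above 0 and open triangles those with more; for *Hsd11b1* 6 of the 7 Homo points lie above every WT point, while for the other 6 genes the genotypes overlap more widely.

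None of the 6 genes tested passed an adjusted p of 0.05 between Homo and WT in limma, where 1 of all 14017 genes did (0.00713%). At an unadjusted p of 0.05 only *Hsd11b1* passed among the 6, higher in Homo, against 5.55% of all genes, 3.05% in that direction and 2.5% lower in Homo. For no gene of the 7 were the genotypes fully separated, which was the case for 0.221% of all genes tested. The median log2 difference over all genes tested was -0.0062.

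*Hsd11b1* encodes 11β-hydroxysteroid dehydrogenase type 1, an enzyme of the endoplasmic reticulum that turns inert 11-dehydrocorticosterone back into corticosterone and so raises the hormone level inside the cell. It was measured at 1.84, 0.792, 2.16, 1.63 and 1.60 FPKM across WT 1 to WT 5. In Homo 1 to Homo 7 it was measured at 1.2, 2.27, 6.14, 5.12, 2.53, 3.33 and 2.91 FPKM. All Homo libraries except Homo 1 lay above the highest WT library, and Homo 3 and Homo 4 were the highest of all. By the rough estimate above, these values rested on about 5 (WT 2) to 56 (Homo 6) fragments. The mean was 1.60 ± 0.507 FPKM in the WT mice (SD, n = 5) against 3.36 ± 1.71 FPKM in Homo (SD, n = 7), 2.09 times the WT mean. The log2 difference was 0.67 (standard error 0.30, 95% interval 0.038 to 1.30), with a limma p of 0.0392 before and 0.899 after adjustment. The exact permutation test of the gene alone gave p = 0.0404. The limma p before adjustment and the permutation p take the gene alone, and the difference did not pass across all genes. The genes described were also chosen with earlier results of these data known, which neither p takes into account. Single mice still overlapped, as Homo 1 lay inside the WT range.

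The direction of *Hsd11b1* was the same in both sets of libraries, 0.85 in the 7 libraries and 0.56 in the 5. With the set held in the model it was 0.72, and rearranging genotype within the sets, which allows 210 arrangements, gave an exact permutation p = 0.0381. In the 5 libraries WT lay between 1.60 and 2.16 FPKM and Homo at 2.91 and 3.33 FPKM. With any 1 library left out the log2 difference stayed between 0.54 (without Homo 3) and 0.82 (without Homo 1). The gene (ENSMUSG00000016194, chromosome 1 of GRCm38 from 193221634 to 193264075, minus strand) shares its interval with *Lamb3* on the opposite strand, and whether fragments were assigned by strand is not given in the sources used here. *Lamb3* was at 0.814 to 2.97 FPKM in WT and 0.498 to 2.54 FPKM in Homo, with means of 1.67 and 1.60 FPKM.

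Among the marker lists of other cell types, the 6 microglial genes had summed levels of 37.9 to 76.5 FPKM in WT and 65.0 to 99.3 FPKM in Homo. One of the 6, *C1qa*, was higher in Homo at an unadjusted p of 0.0045 in limma, and 0 passed after adjustment. The other genes of the microglial list were also higher in Homo on the log2 scale. Their log2 differences were 0.46 for *C1qb*, 0.39 for *P2ry12*, 0.37 for *Csf1r*, 0.23 for *Cx3cr1* and 0.19 for *Tmem119*. The mean over the whole list, *C1qa* (0.87) included, was 0.42. The part of microglial content in the *Hsd11b1* difference was not tested. Summed levels overlapped between genotypes for astrocytes (261 to 438 FPKM in WT, 209 to 375 FPKM in Homo), endothelium (33.6 to 51.4 and 36.7 to 52.4 FPKM), oligodendrocytes (88.8 to 550 and 153 to 403 FPKM) and tanycytes with ependyma (15.3 to 37.1 and 11.8 to 39.7 FPKM). In the last list *Crym* was lower in Homo (log2 difference -0.98) at an unadjusted p of 0.0329 in limma. Its other tested genes went both ways, *Rax* (0.25) and *Tmem212* (0.27) higher and *Vim* (-0.17) and *Foxj1* (-0.020) lower. Among the ARC neuron markers *Npy* and *Agrp* were higher (log2 difference 0.60 for each) at unadjusted p of 0.0269 and 0.04995 in limma. None of these passed after adjustment, and their part in the values of the 7 genes was not tested. In tissue RNA, a change in the number of cells of a type cannot be told apart from a change in RNA per cell.

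*Hsd11b2*, the enzyme that works in the opposite direction and inactivates corticosterone, was chosen after its values were seen and was listed at 0 in 8 of the 12 libraries, with a highest value of 0.218 FPKM. *H6pd*, singled out in the same way, encodes the enzyme that supplies *Hsd11b1* with NADPH and had means of 1.35 ± 1.08 FPKM in the WT mice (SD, n = 5) against 0.733 ± 0.484 FPKM in Homo (SD, n = 7). Its WT 1 value was 3.13 FPKM, and the other WT libraries ran from 0.281 to 1.37 FPKM, against 0.0755 to 1.38 FPKM in Homo. *Hsd11b2* and *H6pd* lay under the filter and were not tested.

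*Nr3c1* (ENSMUSG00000024431, chromosome 18 from 39410545 to 39519421, minus strand), the glucocorticoid receptor, had the narrowest range of the 7 genes over the 12 libraries (1.80-fold), although within WT *Tsc22d3* had the smaller coefficient of variation (18.5% against 22.7%). It was measured at 15.9, 12.2, 18.6, 14.5 and 22 FPKM across WT 1 to WT 5, and at 16.0, 19.7, 15.1, 15.9, 20.9, 19.0 and 17.5 FPKM across Homo 1 to Homo 7. Every Homo library lay inside the WT range. Means were 16.6 ± 3.78 FPKM in the WT mice (SD, n = 5) against 17.7 ± 2.2 FPKM in Homo (SD, n = 7). Homo exceeded WT by a log2 difference of 0.10 (standard error 0.18, 95% interval -0.28 to 0.49, limma adjusted p = 0.964; exact permutation p = 0.458). That interval corresponds to 0.825 to 1.40 times the WT level on the log2(FPKM + 1) scale. Its residual SD of 0.23 (log2) was lower than that of all but 2.54% of the genes tested, whose median was 0.52. Within the sets the log2 difference of *Nr3c1* was 0.30 in the 7 libraries and 0.010 in the 5.

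*Nr3c2* (ENSMUSG00000031618, chromosome 8 from 76899442 to 77245012, plus strand), the mineralocorticoid receptor, was at the other extreme. WT 1 to WT 5 held 3.25, 1.30, 8.82, 3.77 and 10.6 FPKM, and Homo 1 to Homo 7 held 9.64, 2.95, 20.8, 1.44, 15.1, 6.70 and 5.64 FPKM, a range of 16.0-fold. Low values occurred in both genotypes, in WT 2 and Homo 4, and the highest values were those of Homo 3 and Homo 5. Means were 5.54 ± 3.95 FPKM in the WT mice (SD, n = 5) against 8.90 ± 6.92 FPKM in Homo (SD, n = 7). The log2 difference of 0.50 had a standard error of 0.54 (95% interval -0.65 to 1.65, limma adjusted p = 0.923; exact permutation p = 0.427), and the interval runs from 0.638 to 3.14 times the WT level. The log2 difference was 1.38 in the 7 libraries and -0.19 in the 5; these did not differ detectably from each other (exact permutation within sets, p = 0.224). The lowest values rested on about 24 fragments in Homo 4 and 31 in WT 2 by the estimate above.

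The ratio of the receptors was taken in each library. *Nr3c1* exceeded *Nr3c2* in 11 of 12 libraries, Homo 3 being the exception with a ratio of 0.724. The ratio ranged from 2.08 to 9.44 in WT, with a median of 3.84, and from 0.724 to 11.1 in Homo, with a median of 2.84. The mean log2 ratio was 1.92 ± 0.91 in the WT mice (SD, n = 5) against 1.44 ± 1.35 in Homo (SD, n = 7), and the genotypes were not separated (exact permutation p = 0.501). The difference in log2 ratio, -0.48 over all libraries, was -1.38 in the 7 libraries and 0.21 in the 5. With 1 library left out it ran from -0.82 (without Homo 4) to -0.15 (without WT 2), and it was -0.16 without Homo 3.

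**Figure D2:**
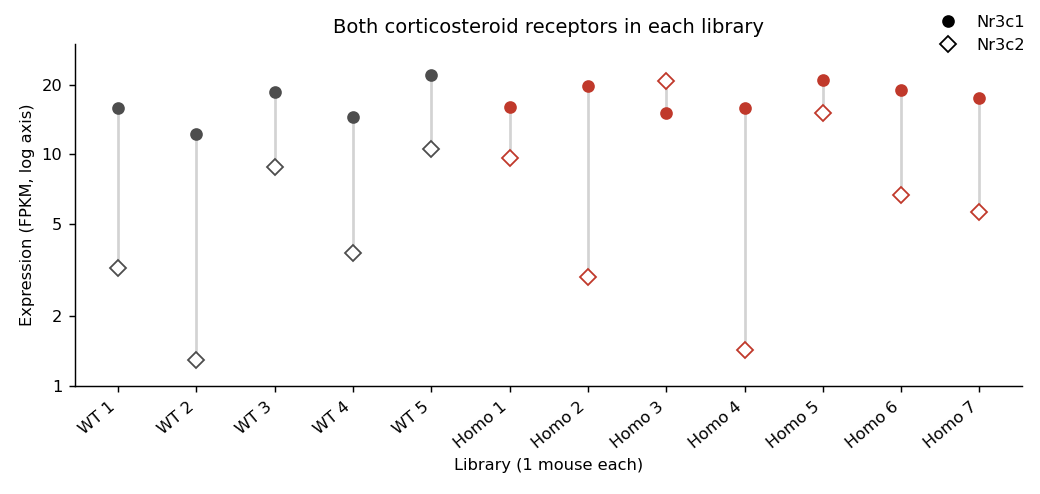
FPKM (log axis) of *Nr3c1* (filled circles) and *Nr3c2* (open diamonds) in each of the 12 libraries, WT in grey and Homo in red, joined by a line within a library. *Nr3c1* stays between 12.2 and 22 FPKM while *Nr3c2* runs from 1.30 to 20.8 FPKM, and only in Homo 3 does *Nr3c2* lie above *Nr3c1*.

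*Sgk1* (ENSMUSG00000019970, chromosome 10 from 21882184 to 21999903, plus strand) encodes a kinase that both receptors induce and that acts on ion channels and transporters, and its promoter carries the element printed above. It was measured at 43.8, 15.7, 18.7, 47.2 and 27.6 FPKM across WT 1 to WT 5. In Homo 1 to Homo 7 the values were 16.6, 8.86, 40.5, 36.0, 15.7, 37.3 and 37.2 FPKM. The genotypes overlapped almost wholly: the Homo libraries lay either between 8.86 and 16.6 or between 36.0 and 40.5 FPKM, and the WT libraries were spread from 15.7 to 47.2 FPKM. Means were 30.6 ± 14.3 FPKM in the WT mice (SD, n = 5) against 27.4 ± 13.1 FPKM in Homo (SD, n = 7), with a log2 difference of -0.20 (standard error 0.40, 95% interval -1.04 to 0.65, limma adjusted p = 0.973; exact permutation p = 0.657). It was -0.36 in the 7 libraries and 0.35 in the 5, and 0.028 over all libraries but Homo 2.

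*Tsc22d3* (ENSMUSG00000031431, chromosome X from 140539528 to 140600659, minus strand) encodes the glucocorticoid-induced leucine zipper, which restrains inflammatory transcription. Its values were 8.85, 8.12, 5.36, 8.86 and 8.47 FPKM across WT 1 to WT 5, so that 4 of the 5 WT libraries lay within 1 FPKM of each other and WT 3 below them. Homo 1 to Homo 7 held 8.27, 5.17, 5.50, 3.66, 10.03, 11.8 and 6.00 FPKM, lying on both sides of the WT values. Means were 7.93 ± 1.47 FPKM in the WT mice (SD, n = 5) against 7.20 ± 2.91 FPKM in Homo (SD, n = 7). Homo minus WT came to -0.18 on the log2 scale (standard error 0.26, 95% interval -0.74 to 0.37, limma adjusted p = 0.946; exact permutation p = 0.484). This difference was -0.40 in the 7 libraries and 0.17 in the 5.

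*Fkbp5* (ENSMUSG00000024222, chromosome 17 from 28399094 to 28517527, minus strand) encodes a co-chaperone that lowers the receptor's affinity for its hormone and is itself induced by the receptor, closing a feedback loop. It was measured at 1.75, 1.52, 3.22, 2.11 and 3.23 FPKM across WT 1 to WT 5 and at 2.78, 1.94, 1.52, 3.57, 1.00, 5.46 and 1.77 FPKM across Homo 1 to Homo 7. Homo libraries extended both below and above the WT range, to 1.00 FPKM in Homo 5 and 5.46 FPKM in Homo 6. Homo minus WT came to 0.021 on the log2 scale (standard error 0.30, 95% interval -0.62 to 0.66, limma adjusted p = 0.995; exact permutation p = 0.933), a value so close to 0 that its sign turned when any of WT 1, WT 2, Homo 1, Homo 4 or Homo 6 was left out (-0.14 to -0.0084). Within the sets the log2 difference of *Fkbp5* was 0.21 in the 7 libraries and 0.15 in the 5, and with the set held in the model it was 0.18. An antisense gene in the interval of *Fkbp5*, *AC154912.1*, was listed at 89.1 FPKM in Homo 5, where *Fkbp5* was lowest, and at 0 in the other 11 libraries.

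*Zbtb16* (ENSMUSG00000066687, chromosome 9 from 48654297 to 48836222, minus strand), a zinc finger transcription factor induced by glucocorticoids in many tissues, was close to the limit of these libraries. Values were 0.564, 1.28, 0.559, 0.647 and 1.02 FPKM across WT 1 to WT 5 and 1.99, 0.969, 0.621, 0.417, 0.752, 1.18 and 1.00 FPKM across Homo 1 to Homo 7. The genotypes overlapped, with Homo 1 the highest and Homo 4 the lowest library of all. The log2 difference was 0.11 (exact permutation p = 0.568); without the filter limma gave a standard error of 0.23, a 95% interval of -0.37 to 0.60 and an adjusted p of 0.933. Its lowest value, in Homo 4, rested on about 6 fragments, and *Hsd11b1* rested on as few as about 5, in WT 2.

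**Figure D3:**
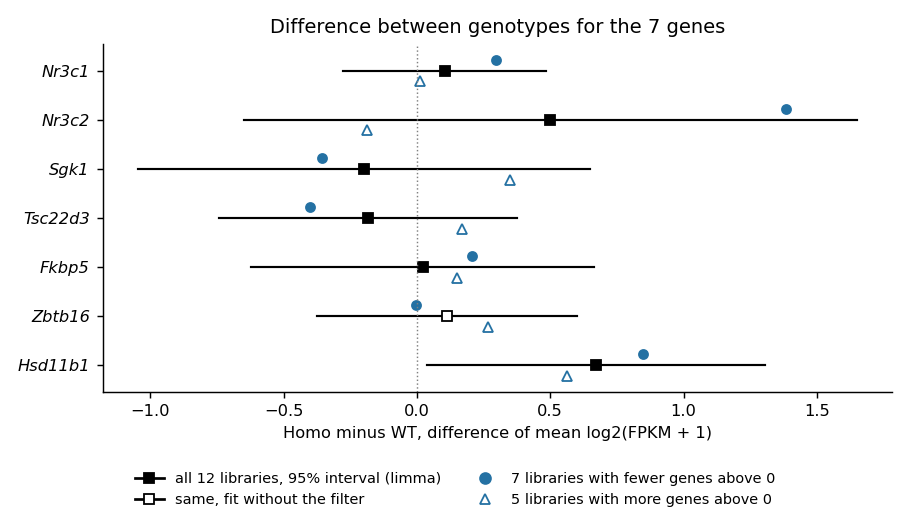
Homo minus WT difference of mean log2(FPKM + 1) for each gene (squares) with the 95% interval from limma over 12 libraries (lines), and the same difference within the 7 libraries listing fewer genes (blue circles) and the 5 listing more (blue triangles). The interval of *Hsd11b1*, 0.038 to 1.30, is the only one that leaves out 0, and *Nr3c2*, *Sgk1*, *Tsc22d3* and *Zbtb16* (-0.0036 and 0.27) change sign between the sets; the open square of *Zbtb16* comes from the fit without the filter.

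None of the 6 genes tested differed between the sets of libraries themselves at an adjusted p of 0.05 in limma with genotype in the model, against 0.178% of all genes, nor at an unadjusted p of 0.05, against 8.42%. The smallest unadjusted p was that of *Fkbp5* (0.111), which was higher by 0.51 on the log2 scale in the 5 libraries with more genes above 0.

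Over the 12 libraries, with the mean of each library set removed, Pearson's r was computed for the 21 pairs of genes, and no pair reached a permutation p of 0.05. The smallest permutation p was that of *Zbtb16* with *Hsd11b1* (Pearson's r = -0.55, permutation p = 0.122; Spearman's rho = -0.51, permutation p = 0.129), and it was 0.694 after adjustment over the 21 pairs (0.893 for rho). Without the 2 libraries farthest from the median of *Zbtb16*, r was -0.29. For the receptors r was 0.45 (permutation p = 0.192, adjusted 0.694) and rho 0.45 (permutation p = 0.168, adjusted 0.893), and r fell to 0.056 without WT 2 and Homo 5. Of the 6 pairs of response genes, *Tsc22d3* with *Zbtb16* had the highest r at 0.45 (permutation p = 0.173, adjusted 0.694) and rho of 0.45 (permutation p = 0.163, adjusted 0.893), with r = 0.14 without WT 3 and Homo 4. *Sgk1* with *Zbtb16* had the lowest r at -0.44 (permutation p = 0.231, adjusted 0.694) and rho of -0.45 (permutation p = 0.204, adjusted 0.893), with r = -0.42 without WT 1 and Homo 2. The other 4 pairs had r between -0.12 and 0.15. With 12 libraries, a p above the threshold does not show that these genes vary independently.

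The genes whose pattern over the 12 libraries was most like that of each gene were found by the same Pearson's r among the other genes tested, as a description without a test. They were *Pigf*, *Dnajc10* and *Eif4a2* for *Nr3c1* (r = 0.93, 0.92 and 0.90), and *Rmnd5b*, *Gabrb2* and *Bcor* for *Nr3c2* (0.91, 0.91 and 0.90). For *Sgk1* they were *Atp5j*, *Gm12942* and *Mea1* (0.93, 0.89 and 0.88), and for *Tsc22d3* *Tub*, *Vps36* and *Yipf2* (0.94, 0.94 and 0.91). *Fkbp5* was most like *Rims4*, *Cap1* and *Slc22a4* (0.90, 0.89 and 0.88), *Zbtb16* like *Enoph1*, *Kdm3b* and *Trpc6* (0.92, 0.92 and 0.91), and *Hsd11b1* like *Aebp2*, *Rpl9-ps7* and *H2-T23* (0.91, 0.90 and 0.90). The libraries share depth and amplification, which such an r includes. None of the 7 genes was among another's nearest.

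A list of 61 further genes of the pathway was read in the same fit, and 45 of them passed the filter. None passed an adjusted p of 0.05, and 1 passed an unadjusted p of 0.05, higher in Homo, against 5.55% of all genes. Of the 45, 21 had a higher and 24 a lower mean in Homo, and the median log2 difference was -0.016.

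Receptor chaperones, which hold the receptor ready to bind its hormone, had a median log2 difference of -0.044 over 10 genes, with 4 higher and 6 lower in Homo and 0 at an unadjusted p of 0.05. *Hsp90aa1*, which encodes HSP90α, was measured at 596 ± 64.3 FPKM in the WT mice (SD, n = 5) against 512 ± 110 FPKM in Homo (SD, n = 7; exact permutation p = 0.143). *Hsp90ab1* was at 554 ± 78.3 and 563 ± 67.9 FPKM, and *Ppid*, a co-chaperone of the same class as *Fkbp5*, at 34.1 ± 7.69 and 28.8 ± 6.17 FPKM (exact permutation p = 0.231). The 10 coregulators, which the bound receptor recruits to chromatin, had a median of -0.069 and 0 at an unadjusted p of 0.05. The corepressor *Ncor1* was at 72.1 ± 6.33 FPKM in the WT mice (SD, n = 5) against 67.9 ± 13 FPKM in Homo (SD, n = 7), and the acetyltransferase *Ep300* at 13 ± 1.71 and 11.6 ± 2.74 FPKM.

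Of 20 further target genes 16 were tested, with a median log2 difference of 0.21 and 10 of the 16 higher in Homo, against 49.3% of all genes tested. The 6 lower in Homo included *Sult1a1* (log2 difference -0.63), *Cdkn1a* (-0.60) and *Bcl6* (-0.49), singled out after their values were seen. None of the 6 passed an unadjusted p of 0.05. The gene that passed an unadjusted p of 0.05 was *Mt1*, a zinc-binding metallothionein induced by glucocorticoids, metals and oxidative stress. It was measured at 250, 193, 111, 203 and 217 FPKM across WT 1 to WT 5 and at 430, 549, 238, 338, 280, 315 and 282 FPKM across Homo 1 to Homo 7. Only WT 1 reached into the Homo range, above Homo 3. The log2 difference was 0.83 (standard error 0.24, limma p = 0.0033 before and 0.707 after adjustment; exact permutation p = 0.00505), and it was 0.67 in the 7 libraries and 0.81 in the 5. *Mt2*, its neighbour in the genome and close relative, was at 151 ± 47.1 FPKM in the WT mice (SD, n = 5) against 206 ± 45.3 FPKM in Homo (SD, n = 7; log2 difference 0.47, exact permutation p = 0.0720).

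Of 7 genes of steroid metabolism and transport only *Srd5a1* and *Abcb1a* passed the filter. *Srd5a1*, a steroid 5α-reductase, was at 1.38 ± 0.718 FPKM in the WT mice (SD, n = 5) against 1.09 ± 0.458 FPKM in Homo (SD, n = 7). *Abcb1a*, the P-glycoprotein that pumps glucocorticoids out at the blood-brain barrier, took values from 16.2 to 94.9 FPKM in WT 1, WT 3, Homo 1, Homo 3 and Homo 5, and the remaining 7 libraries ran from 0.817 to 1.86 FPKM, each genotype holding both kinds. *Serpina6*, which encodes the corticosteroid-binding globulin of plasma and was named after its values were seen, was listed at 0 in all 12 libraries.

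Of 6 stress axis peptides and receptors 3 were tested, and none passed an unadjusted p of 0.05. *Crhr2*, the type 2 receptor for corticotropin-releasing hormone and urocortins, was at 2.80, 2.38, 1.96 and 0.915 FPKM in WT 3, WT 2, WT 4 and WT 5 and at 15.9 FPKM in WT 1, against 0.125 to 6.28 FPKM in Homo (log2 difference -1.07, exact permutation p = 0.107). Without WT 1 the log2 difference of *Crhr2* was -0.56. *Crhr1* was at 3.43 ± 1.44 FPKM in the WT mice (SD, n = 5) against 2.12 ± 1.47 FPKM in Homo (SD, n = 7; exact permutation p = 0.133). *Avp*, a peptide of neurons outside the ARC, ran from 0.916 to 380 FPKM among the WT mice and from 6.70 to 273 FPKM among the Homo mice (exact permutation p = 0.163). The 6 markers of the neighbouring paraventricular nucleus, *Avp* among them, summed to 16.3 to 1048 FPKM in WT and 34.5 to 583 FPKM in Homo. In WT 5, where the sum was highest, *Oxt* was at 646 and *Avp* at 380 FPKM, against 18.2 FPKM for *Otp* and 3.87 FPKM for *Trh*. The part of these markers in the stress axis values was not tested. Of the relatives and substrates of the *Sgk1* kinase 4 of 8 were tested and 0 passed an unadjusted p of 0.05. The ubiquitin ligase *Nedd4l* was at 9.27 ± 0.889 FPKM in the WT mice (SD, n = 5) against 7.79 ± 2.33 FPKM in Homo (SD, n = 7; exact permutation p = 0.182), *Ndrg1* at 23.5 ± 19.9 and 19.5 ± 5.86 FPKM, and the transcription factor *Foxo3* at 9.27 ± 3.16 and 11.2 ± 2.01 FPKM.

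**Figure D4:**
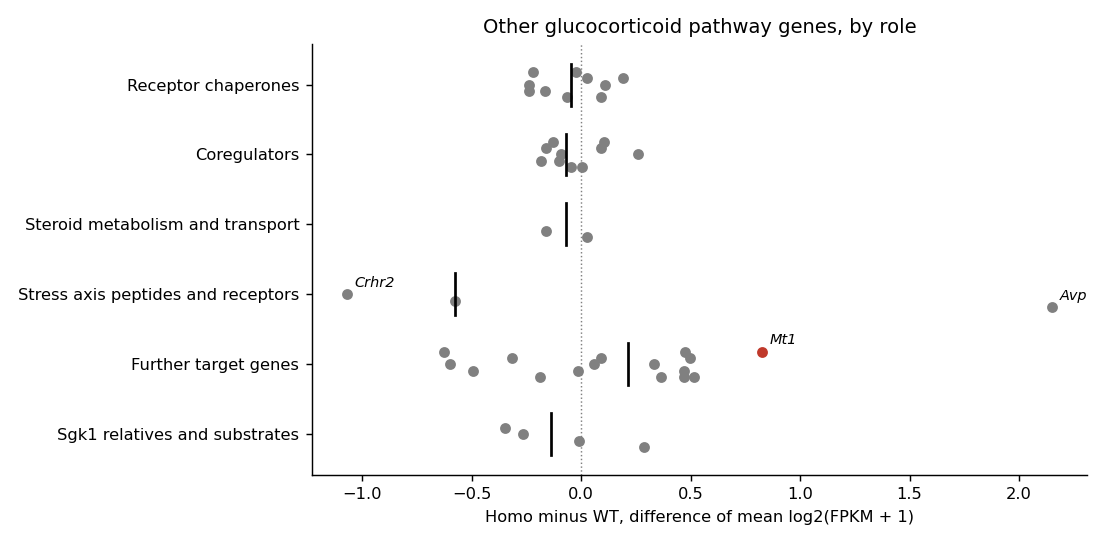
Homo minus WT difference of mean log2(FPKM + 1) for the 45 tested genes of the pathway list, 1 point per gene, by role, with the median of each role as a black bar. *Mt1*, at 0.83, is the only gene with an unadjusted limma p under 0.05 (red); the others are grey, and points are offset vertically only to keep them apart.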

How the data were processed

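The ARC of 12 mice was profiled by RNA sequencing, 1 library per mouse, after laser capture from 14 μm sections and whole-transcriptome amplification with the NuGEN RNAseq v2 system. The authors deposited 1 table of FPKM values for 38283 genes; the submitters' processing notes name TopHat2 2.0.8, Cufflinks 2.2.1 and GRCm38, without the role of each, and further scaling is not given in the sources used here. All 12 columns were matched to mice by their labels (0 were left over); the headings for Homo 4 and Homo 5 have 1 letter more, and genotype with number identified them.

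Because FPKM do not hold counts, log2(FPKM + 1) was tested with limma 3.58.1 in R 4.3.3 (trend, robust variances, genotype as the only term) over 14017 genes with a mean of at least 1 FPKM, since the paper describes only general parametric and non-parametric tests for its data as a whole. Differences on this scale understate changes of low genes. The scripts were tested on simulated data. The members and lists were chosen with earlier results of these data known. Alternatives were a pseudocount of 0.1, no filter, quantile and upper-quartile scaling, the library set or a replicate block in the model, array weights, each library left out and each set alone. Of the pathway list, the genes named are, for each role, the 2 with the smallest p and the most abundant; 1 gene that this rule names is not reported here. Positions are from GENCODE mouse release 21, which held 97.5% of the tested identifiers; the annotation behind the table is not stated. Library pairs had a Spearman correlation of 0.871 to 0.906 across genes, and none was a copy of another. Labels do not say whether the mice were littermates. Plots were drawn with matplotlib 3.10.9.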

Additional observations from a re-analysis of the deposited data

Results flagged for a closer look

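One value of the 7 genes stood apart from its group by Dixon's criterion, which picks out about 1 group in 20 by chance; 14 groups were examined. *Tsc22d3* in WT 3 was measured at 5.36 FPKM, and the nearest other WT library was at 8.12 FPKM, a gap of 0.790 of the whole WT range (n = 5). WT 3 also had the lowest summed ARC neuron markers of all libraries (1284 FPKM). Its summed pituitary and pars tuberalis markers were the highest (179 FPKM, followed by WT 5 at 103 FPKM). *Tsc22d3* was lower still in Homo 4 (3.66 FPKM) and Homo 2 (5.17 FPKM), where the ARC neuron markers summed to 4866 and 3809 FPKM. The part of tissue content in the WT 3 value was not tested. Without WT 3 the log2 difference of *Tsc22d3* between Homo and WT was -0.30, against -0.18 over all libraries and -0.060 without Homo 4.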

How the results depend on the processing

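None of the 6 tested genes passed an adjusted p of 0.05 from limma under any alternative run; the smallest adjusted p was 0.724, for *Hsd11b1* with a replicate block. *Hsd11b1* and *Nr3c1* kept their direction in all 21 alternatives, from 0.54 to 0.92 and from 0.0076 to 0.30 on the log2 scale. Directions turned in the 5 libraries with more genes above 0 for *Nr3c2* (-0.19), *Sgk1* (0.35), *Tsc22d3* (0.17) and the *Nr3c1* to *Nr3c2* log2 ratio (0.21). *Fkbp5* turned with a pseudocount of 0.1 (-0.0019) and with the replicate block (-0.12). With 1 library left out, *Fkbp5* ranged from -0.14 to 0.14, *Sgk1* from -0.40 to 0.028 (the latter without Homo 2), *Nr3c2* from 0.18 (without WT 2) to 0.78, *Tsc22d3* from -0.30 to -0.060 (the latter without Homo 4), the log2 ratio of the receptors from -0.82 to -0.15 and *Zbtb16* from 0.0089 to 0.20. The number of genes called was 1 over all libraries, 2 with the replicate block, 6 in the 7 libraries alone, 19 in the 5 alone, and 1 to 3 with 1 library left out (3 without WT 2, 2 without Homo 4). In WT alone 5 of the 6 neighbour pairs kept the order that the means of all 12 libraries had set, *Fkbp5* lying above *Hsd11b1*. That pair was not separated over all libraries, *Hsd11b1* being higher in 6 of 12. The median of the pathway list stayed between -0.081 and 0.14. The cause of these changes was not tested. Same-numbered WT and Homo libraries did not deviate together (correlations of -0.054 to 0.029 over 5 numbers), so numbers were not read as pairs. *Zbtb16* lay under the filter and has no value for quantile scaling, the block or array weights. Depth limits the low genes most: *Hsd11b1* rested on about 5 fragments in WT 2.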

Other observations

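Outside the comparisons above, *Klf9*, a transcription factor and early target of the glucocorticoid receptor, was singled out after its values were seen. It was measured at 2.90, 9.19, 6.13, 8.43 and 6.75 FPKM across WT 1 to WT 5 and at 7.81, 7.47, 8.14, 8.51, 11.5, 14.3 and 8.96 FPKM across Homo 1 to Homo 7, so that 7 of 7 Homo libraries lay above the WT median of *Klf9*. Homo exceeded WT by 0.50 on the log2 scale (standard error 0.26), with a limma adjusted p of 0.903 and an exact permutation p of 0.0568, and it was 0.60 in the 7 libraries and 0.62 in the 5. WT 1 was the lowest library, and without it the log2 difference of *Klf9* was 0.27. Among the 45 tested genes of the pathway list, *Mt1* was the other with all 7 Homo libraries above its WT median. *Crh*, the hypothalamic releasing hormone of the stress axis, was listed at 0 in 10 of the 12 libraries, with 0.250 FPKM in WT 2 and 0.385 FPKM in Homo 7.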
